A study of Arabidopsis thaliana with 4 samples.

Results

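The genes described here encode the catalytic core of the plastid's own RNA polymerase in *Arabidopsis thaliana*. The rule that picks them uses annotation and no measured value, though members were chosen with earlier results of these data known. A probe set qualified if it was annotated to exactly 1 gene of the plastid genome and that gene's symbol begins with rpo. This gave 4 genes with 1 probe set each (rpoA, rpoB, rpoC1 and rpoC2), out of 69 plastid-encoded genes with a single-gene probe set and 22746 probe sets tested on the array. The study hybridised total RNA of whole seedlings, harvested 10 days after germination, to Affymetrix ATH1 arrays, with 2 arrays for Col and 2 for ref6-1. Col is the wild type, and ref6-1 is a mutant of the same accession. Its affected gene REF6 (JMJ12) encodes a Jumonji-domain enzyme that removes methyl groups from lysine 27 of histone H3, a repressive mark of nuclear chromatin. Seedlings of both genotypes were raised untreated on MS plates at 23 °C with 16 h of light a day. REF6 mRNA was not analysed here, and the genotype labels were therefore not checked against it.

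Plastids descend from cyanobacteria and keep a small genome with a polymerase of the bacterial type, the plastid-encoded polymerase. Its α subunit is encoded by rpoA, β by rpoB, β′ by rpoC1 and β″ by rpoC2. The enzyme takes its promoter specificity from sigma factors encoded in the nucleus and transcribes chiefly the photosynthesis genes in green tissue. A second, single-subunit polymerase of the phage type, made in the nucleus, transcribes the rpo genes of the rpoB operon among others. The genes rpoB, rpoC1 and rpoC2 lie next to each other in that operon, and rpoA belongs to a cluster of ribosomal protein genes. Plastid DNA is not wound on histones. Plastid RNAs mostly lack the long poly(A) tails by which nuclear transcripts are primed in the standard labelling reaction for these arrays, so their signals can depend on labelling as well as on abundance.

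The deposited values were intensities, and differences are given as log2(intensity + 16), a scale on which changes of dim probe sets come out too small. Median intensities of the 4 arrays lay between 142.6 and 146.3, and correlations between arrays across probe sets lay between 0.988 and 0.995. The highest was that of the ref6-1 pair, and the lowest that of Col replicate 1 with ref6-1 replicate 2. The Col pair had 0.9938, and Col replicate 2 had 0.9935 and 0.9936 with the ref6-1 arrays. The ratio of 3′ to 5′ intensity of the ubiquitin control probe sets, a sign of RNA integrity, was 2.06 and 2.14 on the Col arrays and 1.98 and 1.99 on the ref6-1 arrays. The ratios were higher for actin, at 4.98 and 5.11 on the Col arrays and 5.10 and 4.65 on the ref6-1 arrays. For GAPDH they were 2.81 and 2.19 on the Col arrays and 2.39 and 2.13 on the ref6-1 arrays, highest on Col replicate 1. Both of these controls overlapped between the genotypes. The part of RNA integrity in the differences below was not tested. The labelled tissue was set against marker genes of green tissue and of root, for which no detection calls were used here. Only 2 of 6 listed green-tissue markers and 2 of 5 listed root markers had a single-gene probe set. The photosynthesis genes RCA and LHCB4.1 had log2 fold changes of 0.06 and 0.02, and the root-hair expansin genes EXPA7 and EXPA18, whose intensities were 91.2 to 109 and 186 to 219.8, had 0.11 and 0.09, with limma adjusted p between 0.898 and 0.989.

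Between ref6-1 and Col, 0 of the 4 polymerase genes passed limma's test at an adjusted p of 0.05, a threshold that 1.48% of all probe sets passed. At an unadjusted limma p under 0.05 there were 2 of the 4, against 8.5% of all probe sets, and these pointed in opposite directions: rpoC1 was higher in ref6-1 and rpoB was lower. The median log2 fold change over the 4 genes was 0.03, and over all probe sets it was -0.02. Their fold changes ranged from -0.32 to 0.30, with 2 above 0 and 2 below. In a bulk sample, a difference of a plastid transcript cannot be told apart from a difference in the number of cells or plastids that hold it.

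The gene rpoA (probe set 244978_at, locus tag ArthCp055) encodes the α subunit, on which the bacterial type of polymerase assembles. Its intensity was 3902 and 4246 on the 2 Col arrays and 4163 and 3638 on the 2 ref6-1 arrays. The genotypes overlapped, since ref6-1 replicate 2 was the lowest of the 4 arrays and ref6-1 replicate 1 lay between both Col arrays. The means were 4074 ± 243 in Col and 3900.2 ± 371 in ref6-1 (SD, n = 2 each). The log2 fold change was -0.06 (SE 0.106, limma adjusted p = 0.949), with a 95% interval from -0.30 to 0.17. This interval corresponds to a fold between 0.811 and 1.13. The sign of the difference turned to 0.03 when ref6-1 replicate 2 was left out.

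The gene rpoB (244999_at, ArthCp014) encodes the β subunit, which forms one side of the catalytic cleft. Its intensity was 102 and 91.6 on the Col arrays and 68.05 and 81.1 on the ref6-1 arrays. Both ref6-1 arrays lay below both Col arrays, an arrangement found for 19.5% of all probe sets. The means were 96.5 ± 7.05 in Col and 74.6 ± 9.21 in ref6-1 (SD, n = 2 each). The log2 fold change was -0.32 (SE 0.114), with a 95% interval from -0.57 to -0.06, and limma gave an unadjusted p of 0.0198 and an adjusted p of 0.389. A larger absolute log2 fold change was found for 1154 probe sets, 5.07% of those tested. The difference thus did not pass once all probe sets were taken into account. It was -0.21 without ref6-1 replicate 1.

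The gene rpoC1 (244998_at, ArthCp013) encodes β′, which carries the metal-binding active site. Its intensity was 815 and 827 on the Col arrays and 1116 and 927 on the ref6-1 arrays. Both ref6-1 arrays lay above both Col arrays, as was so for 16.1% of all probe sets. The Col arrays were close together and the ref6-1 arrays far apart, with means of 821 ± 8.51 and 1022 ± 134 (SD, n = 2 each). The log2 fold change was 0.30 (SE 0.110), with a 95% interval from 0.06 to 0.55, and limma gave an unadjusted p of 0.0206 and an adjusted p of 0.395. The highest array was ref6-1 replicate 1, and without it the value was 0.17 (limma adjusted p = 0.858).

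The gene rpoC2 (244997_at, ArthCp012) encodes β″, the part of the split largest subunit that cyanobacteria and plastids hold as a separate protein. Its intensity was 154 and 170.2 on the Col arrays and 166 and 189.8 on the ref6-1 arrays. The genotypes overlapped, with ref6-1 replicate 1 between both Col arrays. The means were 162 ± 11.8 in Col and 178 ± 16.8 in ref6-1 (SD, n = 2 each). The log2 fold change was 0.12 (SE 0.109, limma adjusted p = 0.885), with a 95% interval from -0.12 to 0.37.

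**Figure D1:**
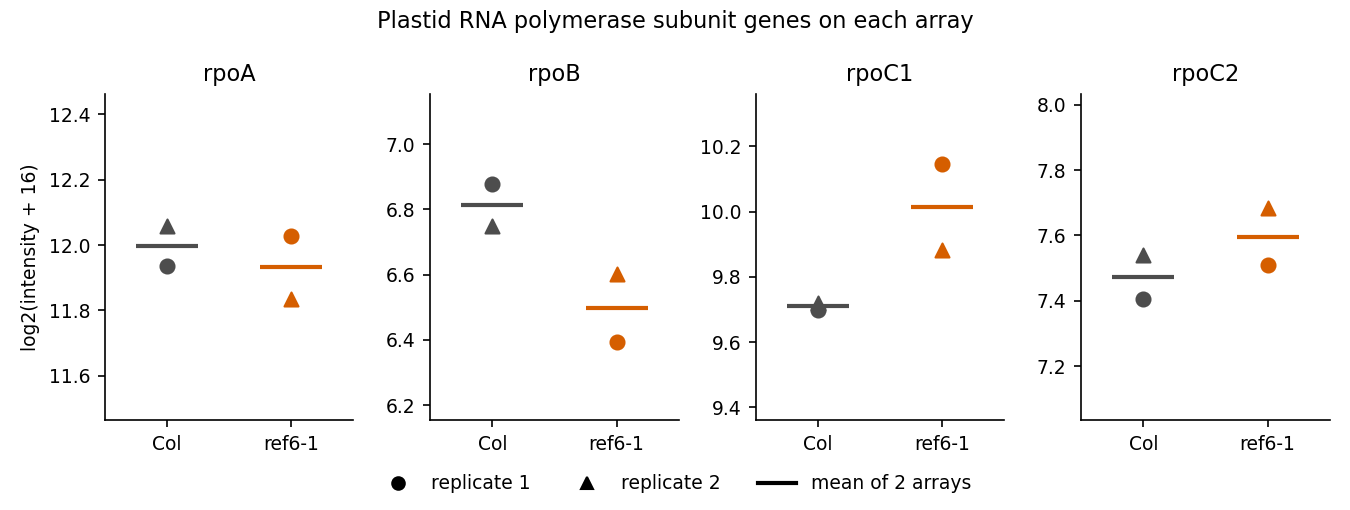
Values of the 4 polymerase genes on each array, as log2(intensity + 16); every panel spans 1 unit, circles are replicate 1, triangles replicate 2 and bars the mean of 2 arrays. The genotypes are apart for rpoB (lower in ref6-1) and rpoC1 (higher in ref6-1) and overlap for rpoA and rpoC2, and 0 of the 4 differences passed the adjusted test.

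The 3 genes of the rpoB operon had differences of unlike sign. The contrast between rpoC1 and rpoB can be followed within each array as the log2 ratio of their values, which shows unequal change only, since levels of different probe sets are not comparable. For rpoB over rpoC1 this ratio was -2.82 and -2.97 on the Col arrays and -3.75 and -3.28 on the ref6-1 arrays. All of the ref6-1 values were below all of the Col values, and the mean ratio was 0.62 lower in log2, a 1.54-fold change. This separation follows from rpoB being lower and rpoC1 higher on both ref6-1 arrays, and adds no further evidence. For rpoB over rpoC2 the ratio was -0.53 and -0.79 in Col and -1.12 and -1.08 in ref6-1, so that the genotypes were again apart. For rpoC1 over rpoC2 it was 2.29 and 2.18 in Col and 2.64 and 2.20 in ref6-1. Here the genotypes overlapped.

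The α subunit gene was compared with the operon in the same way. The log2 ratio of rpoA over rpoC1 was 2.24 and 2.34 in Col and 1.88 and 1.95 in ref6-1, without overlap. Both rpoA over rpoB and rpoA over rpoC2 overlapped between the genotypes. Of the pairs, rpoB over rpoC1 had to be apart, given the values of its single genes. In all, 3 of 6 pairs, which share genes, were apart, beside 35.6% of single probe sets. An exact two-sided permutation test gave p = 0.333 for each of these 3, the smallest value that 2 arrays against 2 allow, and p = 0.667 after adjustment over the 6 pairs, so the design could not bring any of them past 0.05.

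**Figure D2:**
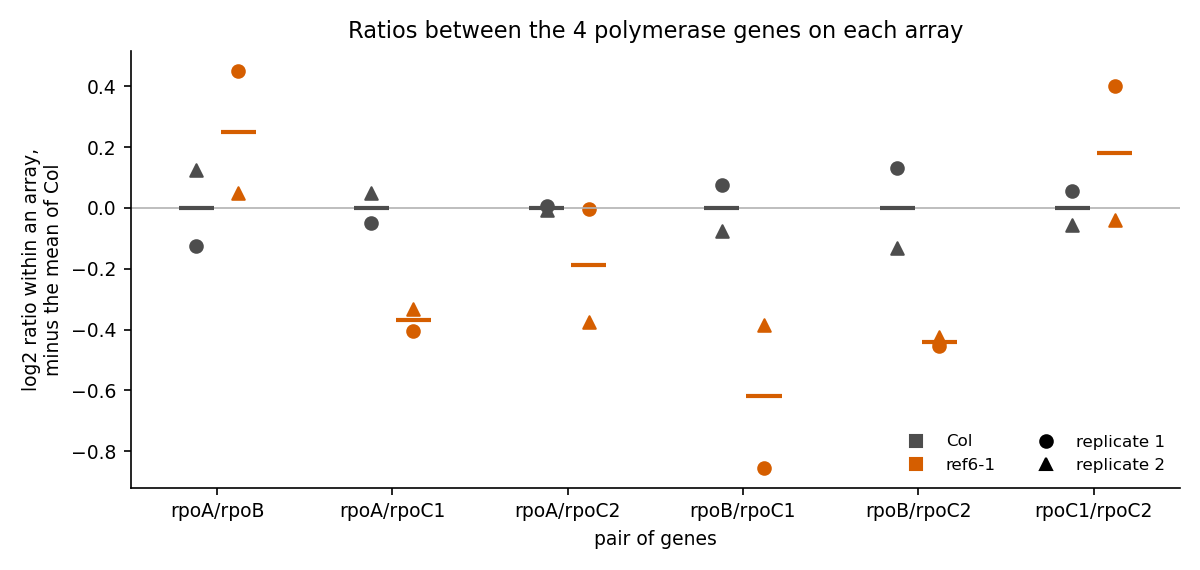
Log2 ratios between the 4 polymerase genes within each array, shown as the difference from the mean of the Col arrays; circles are replicate 1, triangles replicate 2, bars the mean of 2 arrays, grey Col and orange ref6-1. The ref6-1 arrays lie below the Col arrays for rpoA/rpoC1, rpoB/rpoC1 and rpoB/rpoC2, and overlap them for the other 3 pairs.

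Neighbouring genes on the plastid genome gave values of their own. In the RefSeq order of assembly TAIR10.1 the sequence runs rps2, rpoC2, rpoC1, rpoB, and then the tRNA gene trnC, which has no single-gene probe set here, and petN. The ribosomal protein gene rps2 had intensities of 1767 and 1487 in Col and 1464 and 2099 in ref6-1. Its arrays overlapped, and its log2 fold change (0.11, SE 0.159, limma adjusted p = 0.943) was close to that of rpoC2. The cytochrome b6f subunit gene petN differed by 0.02 in log2 (SE 0.110, limma adjusted p = 0.989), whereas its neighbour among the measured genes, rpoB, had -0.32. Around rpoA, the cytochrome b6f gene petD on one side had intensities of 53.2 and 48.6 in Col and 47.6 and 51.0 in ref6-1. These overlapped, and the log2 fold change was -0.04 (SE 0.105, limma adjusted p = 0.975). On the other side the nearest measured gene, which is not directly adjacent, was rpl36 of the large ribosomal subunit, with intensities of 730.0 and 982 in Col and 1017 and 1030.3 in ref6-1. The genotypes were apart, and the difference was 0.27 in log2 (SE 0.133, limma adjusted p = 0.667).

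Among the 69 plastid-encoded genes, rpoB had the lowest log2 fold change of all, and rpoC1 was 12th from the highest. The gene rpoA was 5th from the lowest, and rpoC2, at position 39 from the lowest, lay near the middle. Over the other 65 genes the log2 fold change had a median of 0.11, with 59 above 0 and 6 below. Of these, 0 passed limma's adjusted test, beside 1.48% of all probe sets. At an unadjusted limma p under 0.05 there were 4 of the 65, beside 8.5% of all probe sets. The genotypes were apart for 11 of the 65, a share below the 35.6% of all probe sets. The lean of these 65 genes above 0 turned with 1 array, as their median was -0.01 without Col replicate 1. The contrast with the 4 polymerase genes, 2 above 0 and 2 below, was not tested.

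By class and with all 4 arrays, the 5 psa genes of photosystem I had the highest median, 0.45, led by psaJ at 0.58, and all 5 were above 0. All 15 psb genes of photosystem II were above 0, with a median of 0.09, as were all 6 atp genes of the ATP synthase, also with 0.09. The 10 ndh genes had a median of 0.13 and the 6 pet genes 0.02, with 1 gene below 0 in each. The 7 rpl genes of the large ribosomal subunit had a median of 0.27 and the 8 rps genes of the small subunit 0.14. Of the other 65 genes ccsA, needed for cytochrome c assembly, had the lowest value, -0.26 (SE 0.107, limma adjusted p = 0.500), and ndhF was next at -0.10.

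**Figure D3:**
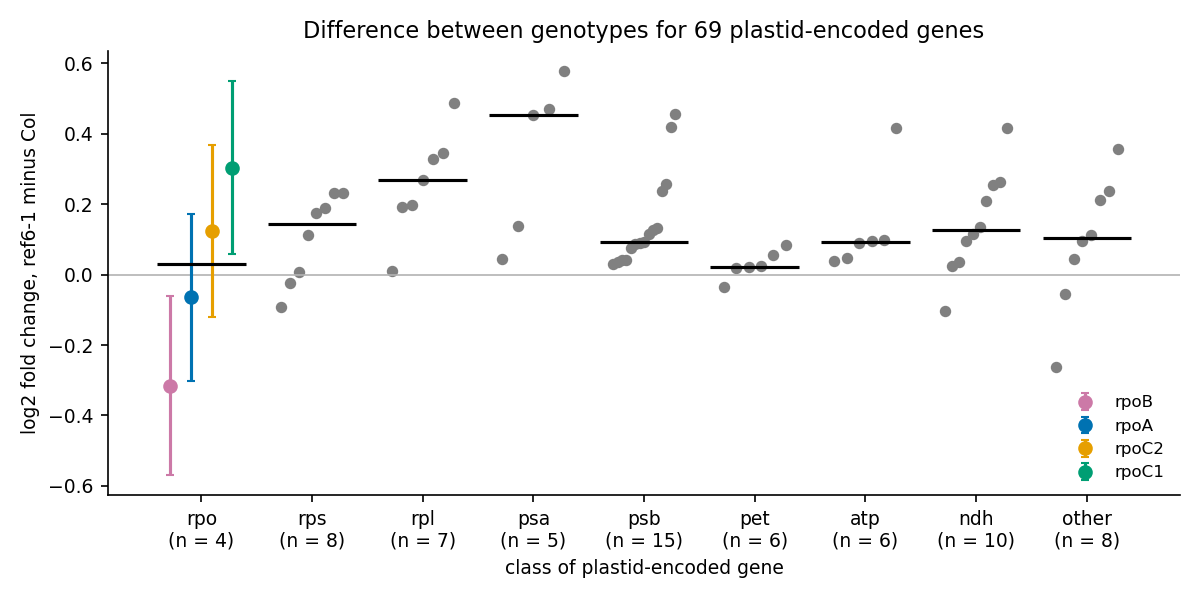
Log2 fold change between ref6-1 and Col for 69 plastid-encoded genes by class; black bars are class medians, grey points single genes, and coloured points the 4 polymerase genes with their 95% intervals from limma. The polymerase genes run from -0.32 for rpoB to 0.30 for rpoC1, while most genes of the other classes lie above 0, with a median of 0.11 that was -0.01 without Col replicate 1.

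The replicate arrays of a genotype differed for most plastid genes, and the 4 polymerase genes are set beside this as a description. Of the other 65 genes, 60 were lower on Col replicate 1 than on Col replicate 2, with a median difference of -0.29 in log2, and 52 were lower on ref6-1 replicate 1 than on ref6-1 replicate 2, with a median of -0.21. Over all probe sets the same medians were 0.04 and -0.01. Col replicate 1 was the lowest of the 4 arrays for 52 of the 65 genes, beside 5069 of all 22746 probe sets. Of the 4 polymerase genes, rpoC1 and rpoC2 were lowest on that array. The median log2 fold change of the 65 was -0.01 without that array and 0.28 without Col replicate 2, and in the latter case 13 of the 65 passed the adjusted test, beside 2.34% of all probe sets.

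For the polymerase genes the difference of Col replicate 1 from replicate 2 was -0.12 for rpoA, 0.13 for rpoB, -0.02 for rpoC1 and -0.14 for rpoC2. In Col, 46 of the other 65 genes had a difference below all of these and 18 had one within their range. In ref6-1 the difference of replicate 1 from replicate 2 was 0.19 for rpoA, -0.21 for rpoB, 0.26 for rpoC1 and -0.18 for rpoC2, and here 32 of the 65 lay below this range and 32 within it. Of the 4 genes rpoC2 alone was lower on replicate 1 in both genotypes, a share like that over all probe sets (25.4%), while 49 of the other 65 plastid genes were lower on it in both. The largest difference between replicates of one genotype was 0.26, for rpoC1 in ref6-1, close in size to its difference between genotypes.

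**Figure D4:**
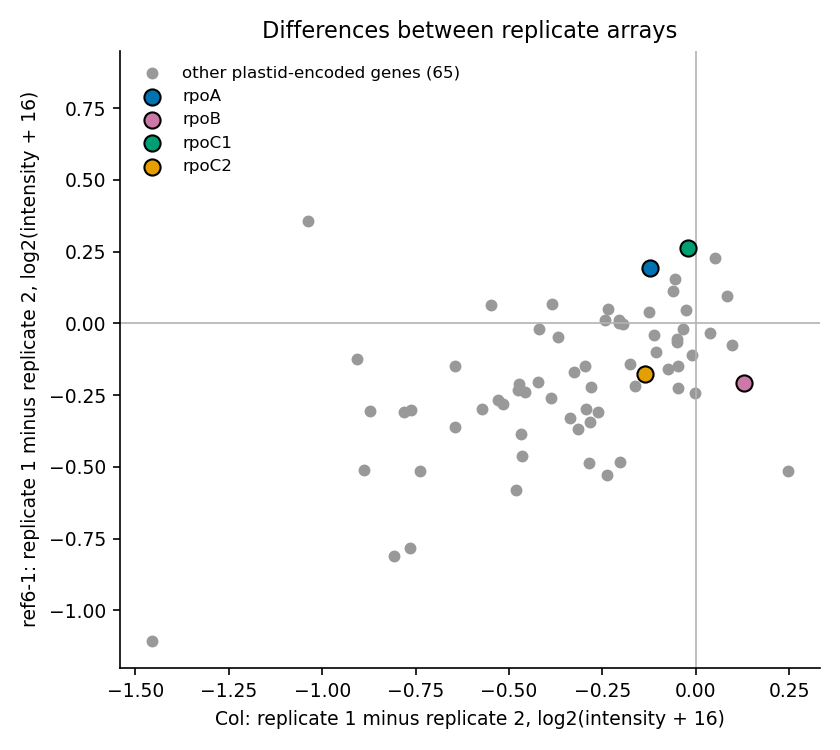
Difference between replicate 1 and replicate 2, in log2(intensity + 16), within Col (horizontal axis) and within ref6-1 (vertical axis) for 69 plastid-encoded genes. Most grey points, the other 65 genes, lie to the lower left of 0, whereas rpoA, rpoB and rpoC1 do not and only rpoC2 is below 0 on both axes.

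When each array was centred on the other 65 plastid-encoded genes, an alternative chosen after seeing the data, the polymerase genes were expressed relative to their own genome. On this scale rpoB had a log2 fold change of -0.44 (SE 0.269), rpoA -0.19 (SE 0.222), rpoC1 0.18 (SE 0.210) and rpoC2 0.00 (SE 0.245). The limma adjusted p was 0.983 for the first 3 and 0.999 for rpoC2. The SE exceeded the difference for rpoA, rpoC1 and rpoC2, and 0 of the 4 passed, beside 0.519% of all probe sets. Neither outcome describes the spread of these 4 genes, because the SEs of this fit came from all probe sets. The same shift was taken from every probe set of an array, and the median over all probe sets became -0.14. The SEs were larger than without centring, as for rpoA with 0.222 against 0.106. The p-values of the centred fit equal those of a normal distribution, so its SEs gave no weight to each gene's own spread.

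**Figure D5:**
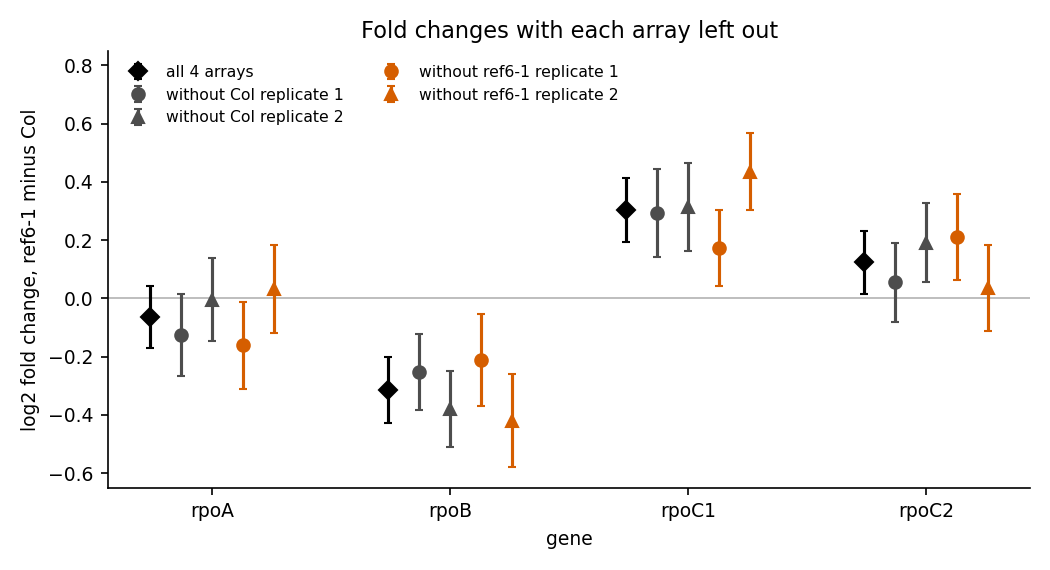
Log2 fold change of each polymerase gene with all 4 arrays (diamonds) and with each array left out in turn; bars are the SE from limma. The value stays below 0 for rpoB and above 0 for rpoC1, which had to be so as their genotypes were apart. It stays above 0 for rpoC2 and turns from -0.06 to 0.03 for rpoA without ref6-1 replicate 2.

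For rpoB and rpoC1 the direction could not turn with 1 array left out, because their genotypes were apart, so only the size is informative. With 1 array left out in turn, rpoB ranged from -0.42 to -0.21 and rpoC1 from 0.17 to 0.44, and the lowest limma adjusted p reached was 0.153 for rpoB and 0.166 for rpoC1. The genes rpoC2 and rpoA ranged from 0.04 to 0.21 and from -0.16 to 0.03.

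The nuclear genes that serve plastid transcription could be compared only in small part. Of 25 listed genes (6 sigma factors, 3 phage-type polymerases, 14 polymerase-associated proteins and 2 factors that edit rpo transcripts), 2 had a single-gene probe set and 0 of these passed limma's adjusted test. RPOTmp (AT5G15700), a phage-type polymerase targeted to both mitochondria and plastids, had intensities of 188 and 192 in Col and 172 and 191 in ref6-1. Its log2 fold change was -0.06 (SE 0.101, limma adjusted p = 0.949), with overlapping genotypes. YS1 (AT3G22690), a pentatricopeptide repeat protein needed for editing of rpoB transcripts, had intensities of 70.0 and 52.1 in Col and 55.4 and 50.7 in ref6-1. Its log2 fold change was -0.15 (SE 0.128, limma adjusted p = 0.880), and again the genotypes overlapped. The other 23 were not analysed here.

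The mean profile of the 4 polymerase genes across the 4 arrays was nearly flat, because the genes differ among themselves. The 5 genes nearest to it by root mean square distance, among 7922 probe sets with a single gene and a mean at least that of rpoB, were AT5G08570, AT4G31140, AT5G12150, AT2G20690 and AT5G41920, at distances of 0.00318 to 0.00926 in log2. The polymerase genes themselves lay at 0.0787 (rpoA), 0.0953 (rpoC2), 0.170 (rpoC1) and 0.191 (rpoB), and 39.6% to 90.9% of those probe sets were nearer to the mean profile than they were. The likeness therefore describes a flat profile over 4 arrays rather than any one of the 4 genes.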

How the data were processed

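The deposited table holds 1 intensity per probe set and array on a linear scale, made by the authors. Not given in the sources used here are the summarization, the background correction, the normalization and the build. The near-equal array medians are as scaling before deposit would give. The cRNA carried biotin and came from 10 ug of total RNA, per the labels' protocols. The 4 columns were matched to samples by name. After 64 control probe sets were left out, 22746 were taken as log2(intensity + 16) and fitted in limma 3.58.1 (R 4.3.3; lmFit, eBayes with intensity trend), ref6-1 against Col. Tests were two-sided, p-values were adjusted by Benjamini-Hochberg over the whole table, and the threshold was 0.05. Genes came from the platform annotation and the RefSeq table of TAIR10.1, by gene ID, and all 4 members matched. The number of arrays limits the precision. The limma p-values rest on the spread between these arrays, shared across probe sets of like intensity. Members and lists were chosen with earlier results of these data known. Genes named are the members, their neighbours, the extremes of plastid classes, a list of nuclear transcription genes, tissue markers and the 5 nearest profiles. The alternatives tried were median centring, quantile normalization, pseudocounts of 1 and 64, filters on the dimmest 30% and 50%, no trend, robust eBayes, control probe sets included, replicate block, and each array left out.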

Additional observations from a re-analysis of the deposited data

How the results depend on the processing

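No alternative without the replicate block brought any of the 4 polymerase genes past the adjusted threshold. Apart from arrays left out and centring on plastid genes, log2 fold changes lay between -0.0649 and -0.0298 for rpoA, -0.372 and -0.213 for rpoB, 0.289 and 0.309 for rpoC1, and 0.0984 and 0.134 for rpoC2. Leaving out 1 array, where the remaining array of its genotype is taken to vary as the other pair does, gave -0.161 to 0.0322 for rpoA. The probe set of rpoB was not tested without the dimmest 50% of probe sets, and the median of the remaining 3 was 0.124 (0.0295 for all 4). Centred on the other plastid-encoded genes, the median of the 4 was -0.0931. The 337 probe sets past the threshold became 273 to 533 with 1 array left out (533 without Col replicate 2). With replicate number as a block, 1636 were called, 7.19% of those tested. In that fit rpoC1 passed at the same 0.304 (limma adjusted p = 0.00065), and rpoB had an adjusted p of 0.0827. The p-values of the blocked fit equal those of a normal distribution. Its SEs, such as 0.0716 for rpoC1, thus held only the spread shared across probe sets of like intensity. The gene's own spread had no weight in them, and the 1636 calls rest on such SEs. Of the other 65 plastid-encoded genes 19 passed with the block and 4 without ref6-1 replicate 1 (1.75% of all probe sets in that fit), against 0 with all arrays and no block; the cause was not tested. Nothing in the labels ties arrays of the same number together. The replicate differences of both genotypes had a correlation of 0.279 across probe sets. Whether arrays of the same number share a batch cannot be told from 2 pairs. How far dim signals such as that of rpoB lie above background cannot be told from the deposited values.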

Other observations

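The genes accD and clpP, chosen after their values were seen, are known in part for transcription by the nucleus-encoded plastid polymerase, as is the rpoB operon. For accD, which encodes a subunit of the acetyl-CoA carboxylase of fatty acid synthesis, the log2 fold change was 0.10 (limma adjusted p = 0.965), and replicate 1 lay 0.48 below replicate 2 in Col and 0.58 below it in ref6-1. For clpP, which encodes the proteolytic subunit of the Clp protease, the log2 fold change was -0.05 (limma adjusted p = 0.954), with replicate differences of -0.05 and -0.06.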
